A study of Mus musculus with 2 samples.

Results

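Sterol and fatty acid synthesis genes were followed in fetal mouse thymic stroma that had been reaggregated into a 3-dimensional organ culture or spread as a monolayer. The list held 39 genes, all of them on the array, among 19504 named genes in all. A probe belonged to the list where its gene name or the gene of its accession was a member, which gave 75 of 41174 non-control probes. The members fell into 5 branches by role: 7 genes of the mevalonate branch, 11 of the sterol branch, 6 of regulation, 12 of fatty acid synthesis and 3 of efflux and esterification.

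Each of the 2 arrays carried both cultures of 1 embryonic stage. Thymus lobes of C57BL/6 fetuses at E14.5 or E15.5 were kept for 8 or 9 days, respectively, in organ culture with 1.35 mM deoxyguanosine, which kills developing lymphocytes, and were then dispersed. The cells spent 72 h either in reaggregation thymus organ culture (RTOC), a pellet on a membrane, or in 2D culture on a dish. RNA from RTOC was labelled with Cy5 and RNA from 2D culture with Cy3, with no dye swap, so that a dye effect of a probe and a culture effect cannot be told apart, and neither can stage, days of organ culture and array. No fraction of the stroma was sorted before the RNA was taken, and in such bulk RNA fewer cells of a type and less RNA per cell cannot be told apart. The labels do not say how many embryos were pooled. The p-values measure no spread beyond that between the 2 arrays, largely pooled over all probes.

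Cholesterol is made from acetyl-CoA through mevalonate, which is built into farnesyl pyrophosphate, joined to squalene, closed to lanosterol and trimmed to cholesterol. Transcription of these genes is driven mainly by SREBP2, and that of fatty acid synthesis genes by SREBP1, both of which leave the endoplasmic reticulum with SCAP when sterol is low and are held there by INSIG proteins when sterol is high. Liver X receptors (LXR), which bind oxysterols, drive cholesterol efflux through ABCA1 and ABCG1 and also the gene of SREBP1c. Macrophages that clear dead thymocytes take up and export much cholesterol, and fat cells, where present, make and store fatty acids.

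Both arrays held stromal RNA by its markers. All 8 thymic epithelial markers and all 6 fibroblast markers were well above background, the scanner's own flag, in all 4 channels. Psmb11, the proteasome subunit of thymic cortical epithelium that the study is about, was 15-fold higher in RTOC (mean log2 ratio 3.90, SE 0.26, limma adjusted p = 0.00161). Between 53.1% and 60.9% of probes were well above background in a channel, and no probe of a member was saturated.

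In RTOC relative to 2D culture, the efflux transporters Abca1 and Abcg1, the regulator Srebf1 and the elongase Elovl6 were higher, and 7 members, among them the sterol enzymes Cyp51, Sc4mol and Hsd17b7, were lower. Each member was read from its brightest probe, and 38 of the 39 could be tested, since Acacb was not well above background in either culture on the E14.5 array. Of these 38, 4 were called higher and 7 lower at an adjusted p under 0.05 (limma, adjusted over all 23685 probes tested). Over all 13505 genes tested 28.1% were called, 15.4% higher and 12.7% lower, so 11 of 38 members is a share near that of the array as a whole. The called genes of the array were 54.8% higher ones, against 65.0% when each array was centred on its median log ratio instead of being quantile normalized over the channels, a scaling that moved the median log2 ratio of the tested probes from -0.01 to 0.15. Levels in RTOC and 2D culture did not overlap over the 4 channels for 20 of the 38 members, all 11 called ones included, against 65.3% of the genes tested. All 11 called members differed by at least 2-fold. With dim probes kept in the fit, limma called no member and no other gene, with 17 of 38 members and 37.5% of the same 13505 genes at an unadjusted p under 0.05.

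**Figure D1:**
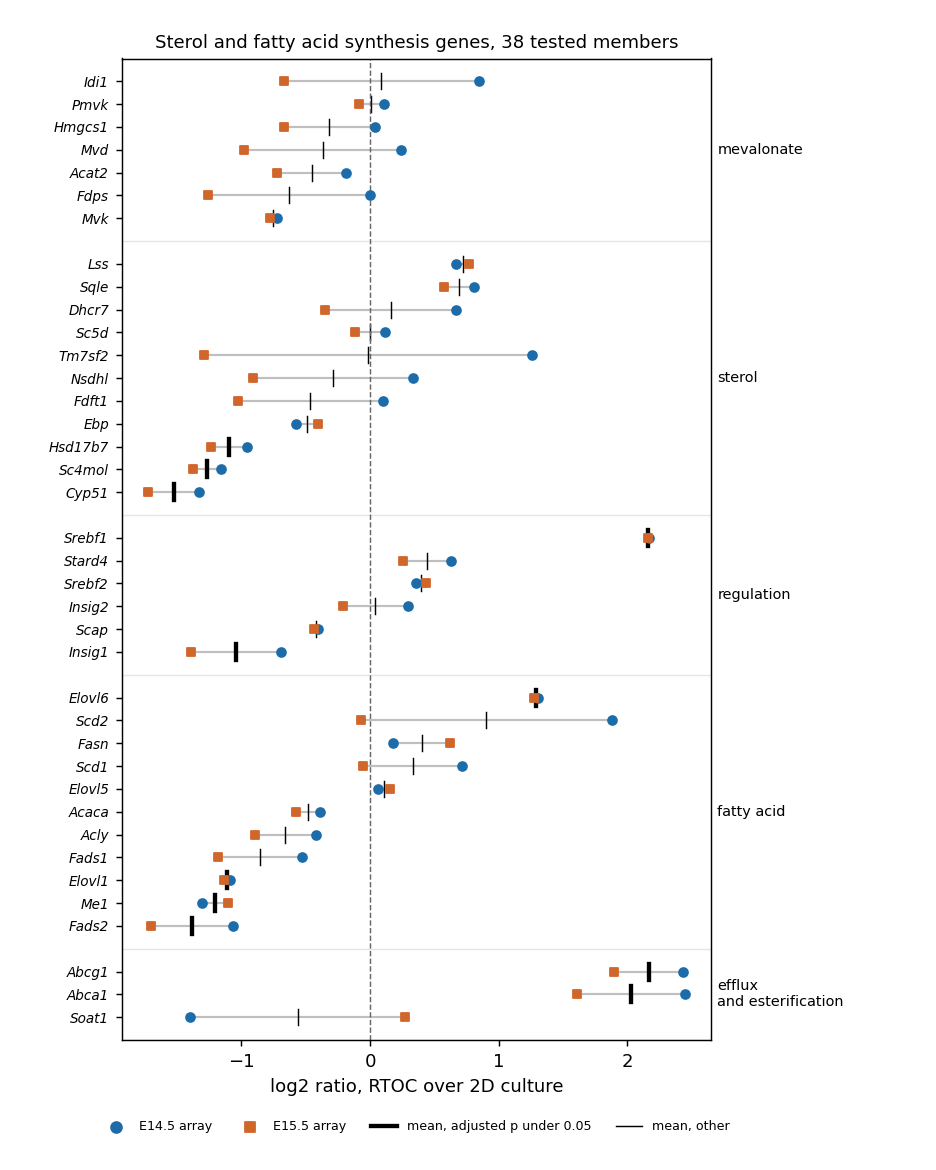
Log2 ratio of RTOC over 2D culture (horizontal axis) for the 38 tested members, by branch, with the E14.5 array as circles, the E15.5 array as squares and the mean of both as a vertical tick, thick where the limma adjusted p was under 0.05. The mevalonate branch has no thick tick, and the highest means are those of Abcg1 (2.17), Srebf1 (2.16) and Abca1 (2.03).

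The mevalonate branch held no member called in either direction by its brightest probe, 0 of 7 by limma, with 1 of 7 at an unadjusted p under 0.05, beside 41.4% of all genes tested. Its median log2 ratio was -0.37, beside 0.00 over all genes tested, with means from -0.75 to 0.09. The median was 0.04 on the E14.5 array alone and -0.72 at E15.5, and -0.18 after normexp background correction and loess. Mvk, mevalonate kinase, had that lowest mean (-0.75, SE 0.25, adjusted p = 0.0745), and its ratios at E14.5 (-0.72) and E15.5 (-0.78) were alike. The other means were -0.63 for Fdps, which makes farnesyl pyrophosphate, -0.45 for Acat2, an acetyl-CoA thiolase, -0.37 for Mvd, the mevalonate diphosphate decarboxylase, -0.32 for Hmgcs1, the cytosolic HMG-CoA synthase, 0.01 for Pmvk, phosphomevalonate kinase, and 0.09 for Idi1, the isopentenyl diphosphate isomerase. Dimmer probes of Hmgcs1 (mean log2 ratio -1.15, adjusted p = 0.029) and Mvk (-1.13, adjusted p = 0.0266) were called lower, but neither call held after normexp and loess (-0.30, adjusted p = 0.163, and -0.45, adjusted p = 0.0832). Read as the median of its probes, Mvk was called lower (-0.94, limma adjusted p = 0.0404), so the absence of calls in this branch depends on the choice of probe.

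In the sterol branch 3 of 11 members were lower in RTOC by their brightest probe and none was higher. Of all genes tested, 12.7% were lower and 15.4% higher. A dimmer probe of Sc5d was called higher (1.41, limma adjusted p = 0.0259). The median log2 ratio of the branch was -0.29, with means from -1.53 to 0.72. This median too turned between the arrays, from 0.11 at E14.5 to -0.91 at E15.5, and it was -0.08 after normexp and loess. Cyp51, the lanosterol demethylase, had log2 levels of 11.07 in 2D culture and 9.74 in RTOC at E14.5, and of 11.28 and 9.56 at E15.5. Both RTOC levels lay under both 2D levels, a 2.88-fold lower mean (log2 ratio -1.53, SE 0.26, limma adjusted p = 0.0128). For Sc4mol (Msmo1 in current naming), the oxidase that removes the methyl groups at the fourth carbon, the levels were 15.08 in 2D culture and 13.92 in RTOC at E14.5, and 14.94 and 13.57 at E15.5. This gene too was below 2D culture in both RTOC samples, by 2.41-fold on average (-1.27, SE 0.25, adjusted p = 0.0195). Hsd17b7, the keto reductase of the same demethylation step, had levels of 11.35 and 10.40 at E14.5 and of 11.94 and 10.71 at E15.5, again 2D culture first. Its levels did not overlap between the cultures and were 2.14-fold lower in RTOC (-1.10, SE 0.26, adjusted p = 0.0299).

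These 3 enzymes work within a few steps of each other on the way from lanosterol, while Nsdhl, the dehydrogenase between Sc4mol and Hsd17b7 in the same complex, had a mean of -0.29 that was not called (adjusted p = 0.578). Of the earlier enzymes, Sqle, squalene epoxidase (0.69, adjusted p = 0.0966), and Lss, lanosterol synthase (0.72, adjusted p = 0.0839), had positive ratios on both arrays that were not called. The dimmer probes of Lss had negative means (-0.18 and -0.22). Fdft1, squalene synthase, had a mean of -0.47. The late enzymes also missed the threshold, with means of -0.49 for Ebp, the sterol isomerase, 0.00 for Sc5d, the sterol desaturase, and 0.16 for Dhcr7, the last reductase of one arm. The mean of Tm7sf2, a sterol reductase, was -0.02, made of 1.26 at E14.5 and -1.29 at E15.5. For Tm7sf2 and Sc5d the sign of the mean turned under median centring.

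Promoter sequences of the 3 lowered sterol enzymes and of Hmgcs1 are shown, since this is where SREBP and its partner NF-Y act on the pathway. The RefSeq promoter table (GRCm38.p6) held 31 of the 39 members, and the 250 bases before the start were searched on both strands for the sterol regulatory element core TCACNCCAC and for the NF-Y box CCAAT, which do not overlap in the windows shown. The NF-Y box was found in 24 of the 31 members and in 14 of the 15 mevalonate and sterol members in the table, beside 37.5% of 27025 genes. The exact core TCACNCCAC occurred in 1 member, Hmgcs1, beside 1.22% of genes. Looser forms of the element were not searched, so a window without the core may still hold one. Capitals mark these motifs, with the NF-Y box reading ATTGG where it lies on the other strand.
Hmgcs1: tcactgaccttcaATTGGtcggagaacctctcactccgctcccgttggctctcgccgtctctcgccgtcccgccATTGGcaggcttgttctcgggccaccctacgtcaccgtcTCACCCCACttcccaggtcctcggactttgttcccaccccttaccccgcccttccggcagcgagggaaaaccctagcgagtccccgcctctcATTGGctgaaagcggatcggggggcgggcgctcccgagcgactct
Cyp51: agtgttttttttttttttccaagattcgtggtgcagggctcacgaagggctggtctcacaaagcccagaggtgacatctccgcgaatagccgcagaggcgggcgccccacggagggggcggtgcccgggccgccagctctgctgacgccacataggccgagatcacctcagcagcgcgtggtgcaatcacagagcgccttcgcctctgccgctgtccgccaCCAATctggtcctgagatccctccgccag
Sc4mol: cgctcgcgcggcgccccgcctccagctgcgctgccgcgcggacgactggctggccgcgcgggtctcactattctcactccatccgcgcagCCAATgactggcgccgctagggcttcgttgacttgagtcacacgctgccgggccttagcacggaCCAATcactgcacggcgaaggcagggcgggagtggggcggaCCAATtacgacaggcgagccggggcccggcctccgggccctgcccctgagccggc
Hsd17b7: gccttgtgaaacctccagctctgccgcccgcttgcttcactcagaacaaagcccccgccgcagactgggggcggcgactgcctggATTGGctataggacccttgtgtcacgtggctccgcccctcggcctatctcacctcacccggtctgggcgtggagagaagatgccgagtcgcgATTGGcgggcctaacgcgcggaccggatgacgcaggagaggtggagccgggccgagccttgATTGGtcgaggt
The windows lie at chr13:119690101-119690350 on the plus strand (Hmgcs1), chr5:4104698-4104947 on the minus strand (Cyp51), chr8:64733579-64733828 on the minus strand (Sc4mol) and chr1:169969206-169969455 on the minus strand (Hsd17b7), and each gene has 1 start in the table. Sc4mol and Hsd17b7 each held 3 NF-Y boxes and Cyp51 held 1, while Hmgcs1, whose brightest probe was not called, held 3 boxes and the core.

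Among the mevalonate and sterol members, the log2 ratio was lower on the E15.5 array than on the E14.5 array for 16 of 18 genes, beside 48.5% of all genes tested, and the median difference was -0.46 against 0.02 over all genes. The ratio was also lower at E15.5 for 5 of 6 regulators, 8 of 11 fatty acid members and 31 of 38 members in all. Among other genes it was lower for 7 of 8 thymic epithelial markers, 1 of 6 fibroblast markers and 2 of 10 cell division genes. Of the related genes described below, it was lower for 14 of 19 of fatty acid activation, elongation and glycerolipid synthesis. It was also lower for 6 of 10 of fatty acid oxidation, 4 of 6 of SREBP processing and 3 of 4 LXR genes. For cholesterol movement the count was 2 of 6, and for isoprenoid genes 1 of 3. With 1 array per stage this difference has no test. Ratios of opposite sign on the arrays were found for 10 of the 18, beside 20.3% of genes. Over every tested probe of these genes, 30 of 33 had the lower ratio at E15.5, although probes of a gene share their RNA and are not independent.

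The levels of each culture were then set side by side. In 2D culture the level was higher on the E15.5 array for 15 of the 18 genes, beside 51.3% of all genes, with a median difference of 0.59. It was also higher for 32 of the 38 members in all and for 7 of 8 thymic epithelial markers. The median 2D difference was 0.35 for these epithelial markers, -0.84 for fibroblast markers and -0.71 for cell division genes. The part of cell composition in these differences was not tested. In RTOC the level was higher for 6 of the 18 genes, beside 55.3% of all genes, with a median difference of -0.15. Fdps read 12.19 in 2D culture at E14.5 and 13.29 at E15.5, while its RTOC levels were 12.20 and 12.02. Only the 2D level moved by more than 1 on this scale, so the ratio went from 0.00 to -1.26.

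Tm7sf2 had the largest difference in ratio between the arrays of the 38 members: its 2D levels were 9.91 and 12.16, and its RTOC levels 11.17 and 10.86, with E14.5 first. At E14.5 the RTOC level was thus the higher one and at E15.5 the lower one. Idi1 was the exception among the large differences, with 2D levels of 12.04 and 12.61 but RTOC levels that went from 12.89 down to 11.94. Fdft1, Mvd and Nsdhl each read about 1 log2 unit higher in 2D culture at E15.5 than at E14.5 (differences of 1.07, 1.02 and 1.04), and their RTOC levels differed by -0.06, -0.20 and -0.21. The called genes Cyp51, Sc4mol and Hsd17b7 kept to the same side of 0 on both arrays.

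**Figure D2:**
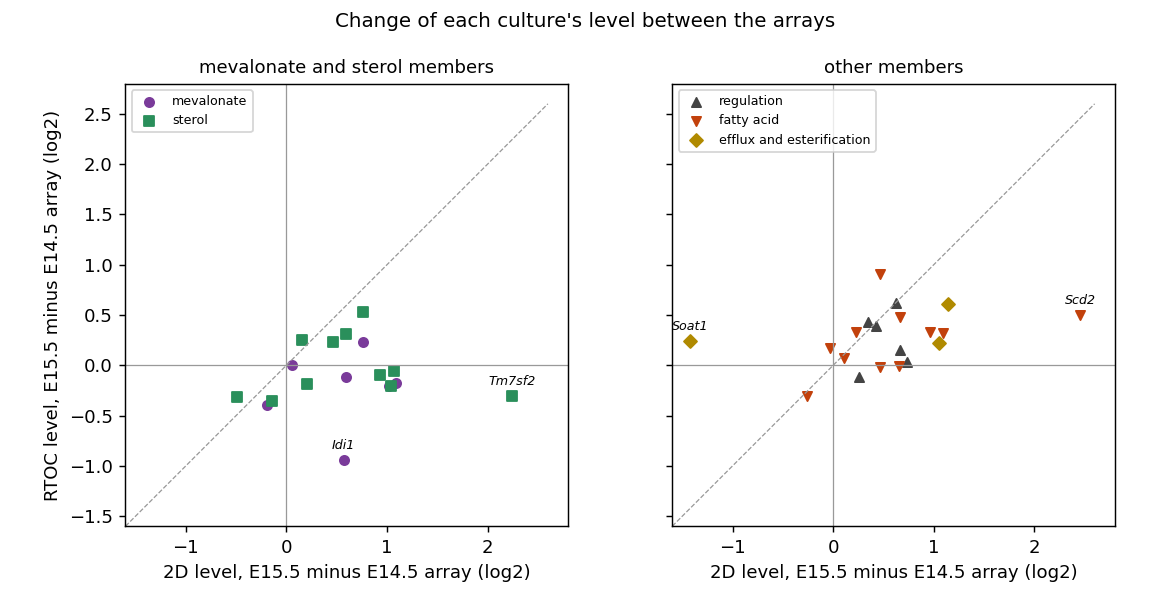
Difference in log2 level between the E15.5 and E14.5 arrays, in 2D culture (horizontal axis) and in RTOC (vertical axis), with 1 point per tested member, the mevalonate and sterol branches on the left and the other branches on the right. Points under the dashed diagonal have a lower RTOC over 2D ratio at E15.5, as 16 of the 18 points on the left do, and Tm7sf2, Idi1, Scd2 and Soat1 are named as the members farthest from the diagonal.

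Among the regulators Srebf1 was higher in RTOC and Insig1 lower, and the other 4 were not called. Srebf1, which encodes the SREBP1 isoforms, read 13.10 in 2D culture and 15.27 in RTOC at E14.5, and 13.73 and 15.89 at E15.5. Both RTOC levels lay well over both 2D levels, and the ratios of the arrays, 2.16 and 2.16, were closer to each other than those of any other called member. The mean was 4.48-fold higher (log2 ratio 2.16, SE 0.25, limma adjusted p = 0.00403), with 711 of the 13505 genes at or above it. Insig1, which holds SCAP in the endoplasmic reticulum and is itself a target of SREBP, read 9.21 and 8.52 at E14.5 and 9.94 and 8.55 at E15.5, 2D culture first. The cultures did not overlap, and the mean was 2.06-fold lower in RTOC (-1.04, SE 0.29, adjusted p = 0.0478), although the call was lost after normexp background correction and loess (-0.57, adjusted p = 0.107). Srebf2, which encodes SREBP2, had a mean of 0.40 (adjusted p = 0.278), Scap -0.42, Insig2 0.04 and Stard4, a sterol carrier, 0.44. The median of the branch was 0.22, and it was -0.27 when each gene was read as the median of its probes.

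In the fatty acid branch 1 of 11 tested members was higher in RTOC and 3 were lower, beside 15.4% and 12.7% of all genes tested. The median was -0.48, and no synthase or carboxylase was called. Elovl6, which lengthens saturated chains, read 10.47 in 2D culture and 11.77 in RTOC at E14.5, and 10.58 and 11.85 at E15.5. Each RTOC level was above each 2D level, by 2.44-fold in the mean (1.29, SE 0.25, adjusted p = 0.0179). The lowest mean of the branch was that of Fads2, the desaturase that starts the synthesis of polyunsaturated chains, with levels of 10.41 and 9.34 at E14.5 and 11.38 and 9.67 at E15.5. RTOC was below 2D culture throughout, 2.62-fold in the mean (-1.39, SE 0.28, adjusted p = 0.0207), with an adjusted p of 0.0527 after normexp and loess.

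Me1, the malic enzyme that supplies NADPH, and Elovl1, an elongase of very long chains, were the remaining members called lower. For Me1 the 2D levels were 12.04 and 12.01 and the RTOC levels 10.73 and 10.90, with E14.5 first, a 2.31-fold lower mean (-1.21, SE 0.25, adjusted p = 0.0222). Elovl1 had 2D levels of 12.99 and 12.73 and RTOC levels of 11.90 and 11.60, a 2.16-fold lower mean (-1.11, SE 0.25, adjusted p = 0.0268). In both genes the 4 levels split by culture with no overlap. None of the enzymes that build palmitate was called, with means of -0.66 for Acly, ATP citrate lyase (adjusted p = 0.122), -0.48 for Acaca, acetyl-CoA carboxylase (adjusted p = 0.202), and 0.40 for Fasn, fatty acid synthase (adjusted p = 0.301). Acacb, the mitochondrial carboxylase, was above background on the E15.5 array alone, with a log2 ratio of -0.57. Of the desaturases, Fads1 had a mean of -0.86 (adjusted p = 0.0759), Scd1 0.33 and Scd2 0.90, and the elongase Elovl5 had 0.11. Scd2 was another gene that differed between the arrays, with a 2D level of 13.74 at E14.5 and 16.19 at E15.5 and RTOC levels of 15.62 and 16.12.

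Both efflux transporters were higher in RTOC. Abcg1, which passes cholesterol to high-density lipoprotein, read 10.04 in 2D culture and 12.47 in RTOC at E14.5, and 11.18 and 13.07 at E15.5. Abca1, which passes it to lipid-free apolipoprotein, read 10.02 and 12.47 at E14.5 and 11.07 and 12.68 at E15.5. In both genes the RTOC levels lay more than 1 log2 unit over either 2D level, and the 2D levels were about 1 unit higher at E15.5 than at E14.5. The mean rise was 4.49-fold for Abcg1 (log2 ratio 2.17, SE 0.27, adjusted p = 0.00515) and 4.08-fold for Abca1 (2.03, SE 0.31, adjusted p = 0.00852). Soat1, which esterifies cholesterol for storage, was not called (-0.56, adjusted p = 0.366) and differed between the arrays, from -1.40 at E14.5 to 0.27 at E15.5.

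The promoters of Abca1 and Srebf1, both called higher in RTOC, are shown because each has a known LXR response element. The table holds no window for Abcg1. The part of LXR in the ratios of these genes was not tested. The letters AGTAACC, a part of the LXR response element known in both promoters, were chosen for the search after the values and the windows had been seen. On either strand they were found in 3 of the 31 members (Abca1, Fasn and Srebf1), beside 2.15% of genes. The hits in Abca1 and Srebf1 were fixed by this choice, so the 3 of 31 cannot be weighed against that share. Fasn, the other member with the letters, was not called (0.40, limma adjusted p = 0.301). Capitals mark these letters.
Abca1: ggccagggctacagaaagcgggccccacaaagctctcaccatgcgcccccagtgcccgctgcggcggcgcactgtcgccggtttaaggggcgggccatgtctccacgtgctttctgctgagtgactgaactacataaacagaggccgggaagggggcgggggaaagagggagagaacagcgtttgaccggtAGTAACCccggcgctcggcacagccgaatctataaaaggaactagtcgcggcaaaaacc
Srebf1: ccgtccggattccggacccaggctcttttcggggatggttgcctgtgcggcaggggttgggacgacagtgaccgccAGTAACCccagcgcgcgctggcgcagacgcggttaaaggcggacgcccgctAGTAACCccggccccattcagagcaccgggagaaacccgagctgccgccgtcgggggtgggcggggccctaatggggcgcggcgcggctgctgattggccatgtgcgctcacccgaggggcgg
The Abca1 window lies at chr4:53159896-53160145 on the minus strand. That of Srebf1, at chr11:60210472-60210721 on the minus strand, belongs to the 1 of its 3 starts in the table whose window holds the letters, there at 2 places. With 1 tested probe for Srebf1, transcripts of these starts were not told apart.

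Markers of other cell types differed between the cultures as well. Their counts stand beside 15.4% called higher and 12.7% called lower over all genes tested. Of 7 macrophage markers 3 were higher in RTOC and none lower, with Adgre1 (F4/80) at a mean log2 ratio of 3.01 (adjusted p = 0.00233). Csf1r was at 1.10, while Cd68 (0.61), Mrc1 (0.59), Cd14 (0.16) and Itgam (-0.61) were not called. The summed intensity of the list was 56578 to 68567 in 2D culture and 165221 to 216026 in RTOC, and Lyz2 (1.45) made up most of each sum. All 7 macrophage markers were well above background in every channel. The 3 adipocyte markers that could be tested, Fabp4 (4.35, adjusted p = 0.00428), Cebpa (2.08) and Pparg (1.74), were higher in RTOC. Which cells carried the RNA of these 3 genes was not tested. The summed intensity of the 9 markers was 2591 to 4275 in 2D culture and 30021 to 48315 in RTOC, where Fabp4 made up most of it. Plin1, Cfd and Cidec, markers of mature fat cells, were above background only in RTOC at E15.5. Adipoq was above it in both cultures at that stage alone, and Lep and Retn in no channel. Endothelial markers were higher in RTOC in 3 of 4 cases, with Cdh5 at least 5.01-fold higher, a bound because neither of its 2D levels was well above background. Of 5 lymphocyte markers Ptprc, which macrophages carry too, was higher (1.88), Cd3e was at -0.08 and was not called, Cd8a was above background in no channel, Cd4 only in RTOC at E15.5 and Rag1 only in RTOC at E14.5. Thymic epithelial markers were higher in RTOC for 4 of 8, with Krt14 lower (-1.86), and fibroblast markers were mixed, 3 higher and 2 lower of 6. The part of any of these cells in the ratios of the transporters, Srebf1 and the fatty acid genes was not tested.

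Where a member had several tested probes, they often disagreed. Of 19 such members 11 had all probes on 1 side of 0 and 8 had probes on both sides. For Sc5d the brightest probe gave 0.00, while the dimmer one was called higher (1.41, adjusted p = 0.0259). Stard4 gave 0.44 by its brightest probe against -0.88 and -0.98, the last of them called lower (adjusted p = 0.0449), though not after normexp and loess (-0.25, adjusted p = 0.275). Lss gave 0.72 against -0.18 and -0.22, and Srebf2 gave 0.40, -0.34 and 0.80. The 4 called members with several probes were more even: all probes of Hsd17b7, Insig1 and Me1 were called lower, and for Cyp51 2 of 3 were, the third at -0.74 (adjusted p = 0.0783). After normexp and loess neither Insig1 probe was called, and the dimmer one went from -1.36 to -0.21 (adjusted p = 0.297). Srebf1, Abca1, Abcg1, Elovl6, Sc4mol, Elovl1 and Fads2 each rested on 1 tested probe.

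**Figure D3:**
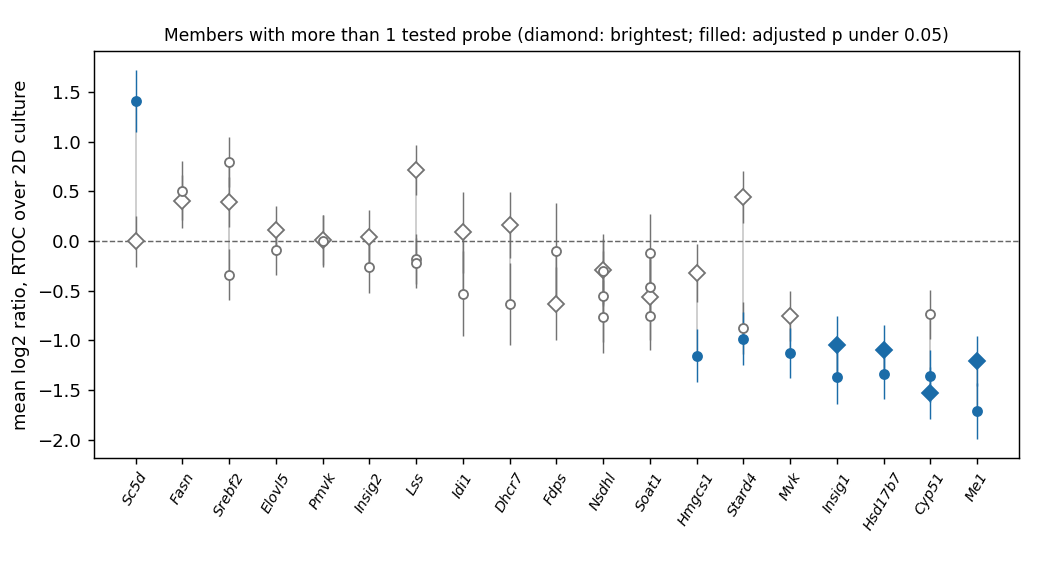
Mean log2 ratio of RTOC over 2D culture (vertical axis) for each tested probe of the 19 members with more than 1, with bars of 1 SE from limma, diamonds for the brightest probe of a gene, and filled symbols where the adjusted p was under 0.05. All probes of Hsd17b7, Insig1 and Me1 are filled and below 0, while those of Stard4, Lss, Srebf2 and others lie on both sides.

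Related genes outside the list were read in the same way. For every related list, the share over all genes tested was 15.4% called higher and 12.7% called lower. Of 4 LXR genes, Mylip, an LXR target that degrades lipoprotein receptors (8.38-fold, mean 3.07, adjusted p = 0.00217), and Nr1h3, which encodes LXRα (3.73-fold, 1.90, adjusted p = 0.00612), were higher in RTOC. Nr1h2, which encodes LXRβ, was at -0.50 and Lpcat3 at 0.37, neither of them called. Of 6 genes of cholesterol movement, Scarb1, the receptor for high-density lipoprotein (1.60, adjusted p = 0.00963), and Lipa, the lysosomal lipase (1.09, adjusted p = 0.036), were higher and none was lower.

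Of 6 genes of SREBP processing and sterol sensing, Rnf139, a ubiquitin ligase of the endoplasmic reticulum, was higher (0.93, adjusted p = 0.0455) and Mbtps2, the site-2 protease that releases SREBP, was lower (-1.63, adjusted p = 0.00907). The Mbtps2 levels were low, 8.39 and 7.13 in 2D culture and 6.85 and 5.42 in RTOC, E14.5 first. Only 1 of its 3 probes could be tested. Erlin2 was not called by its brightest probe (-0.40), though 2 of its 3 probes were called lower. None of the 3 tested isoprenoid genes was called, none of them at an unadjusted p under 0.05 either, with means from -0.55 to 0.66.

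Of 19 tested genes of fatty acid activation, elongation and glycerolipid synthesis, 3 were higher and 4 lower, with a median of -0.24. The higher ones were Acsl1, which activates long chains (2.73, adjusted p = 0.00286), Lpin1, a phosphatidate phosphatase (1.86, adjusted p = 0.00614), and Thrsp, higher by at least 1.52-fold, with neither 2D level well above background. The lowest means were those of Fads3, a desaturase homologue (-2.62, adjusted p = 0.00273), Hsd17b12, the reductase of the elongation cycle (-1.51, adjusted p = 0.0121), and Agpat2, an acyltransferase of triglyceride synthesis (-1.34, adjusted p = 0.0167). Of 10 genes of fatty acid oxidation, 3 were higher, Cpt1a (1.44, adjusted p = 0.0175) and Hadhb (1.26, adjusted p = 0.021) among them, and Ppara by at least 1.21-fold, with its 2D level not well above background. Pdk4, which holds back the use of pyruvate, was lower (-1.95, adjusted p = 0.0277). Of 10 cell division genes Mki67 (2.82-fold, adjusted p = 0.0129) and Ccna2 (1.95-fold, adjusted p = 0.0454) were higher and none was lower.

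**Figure D4:**
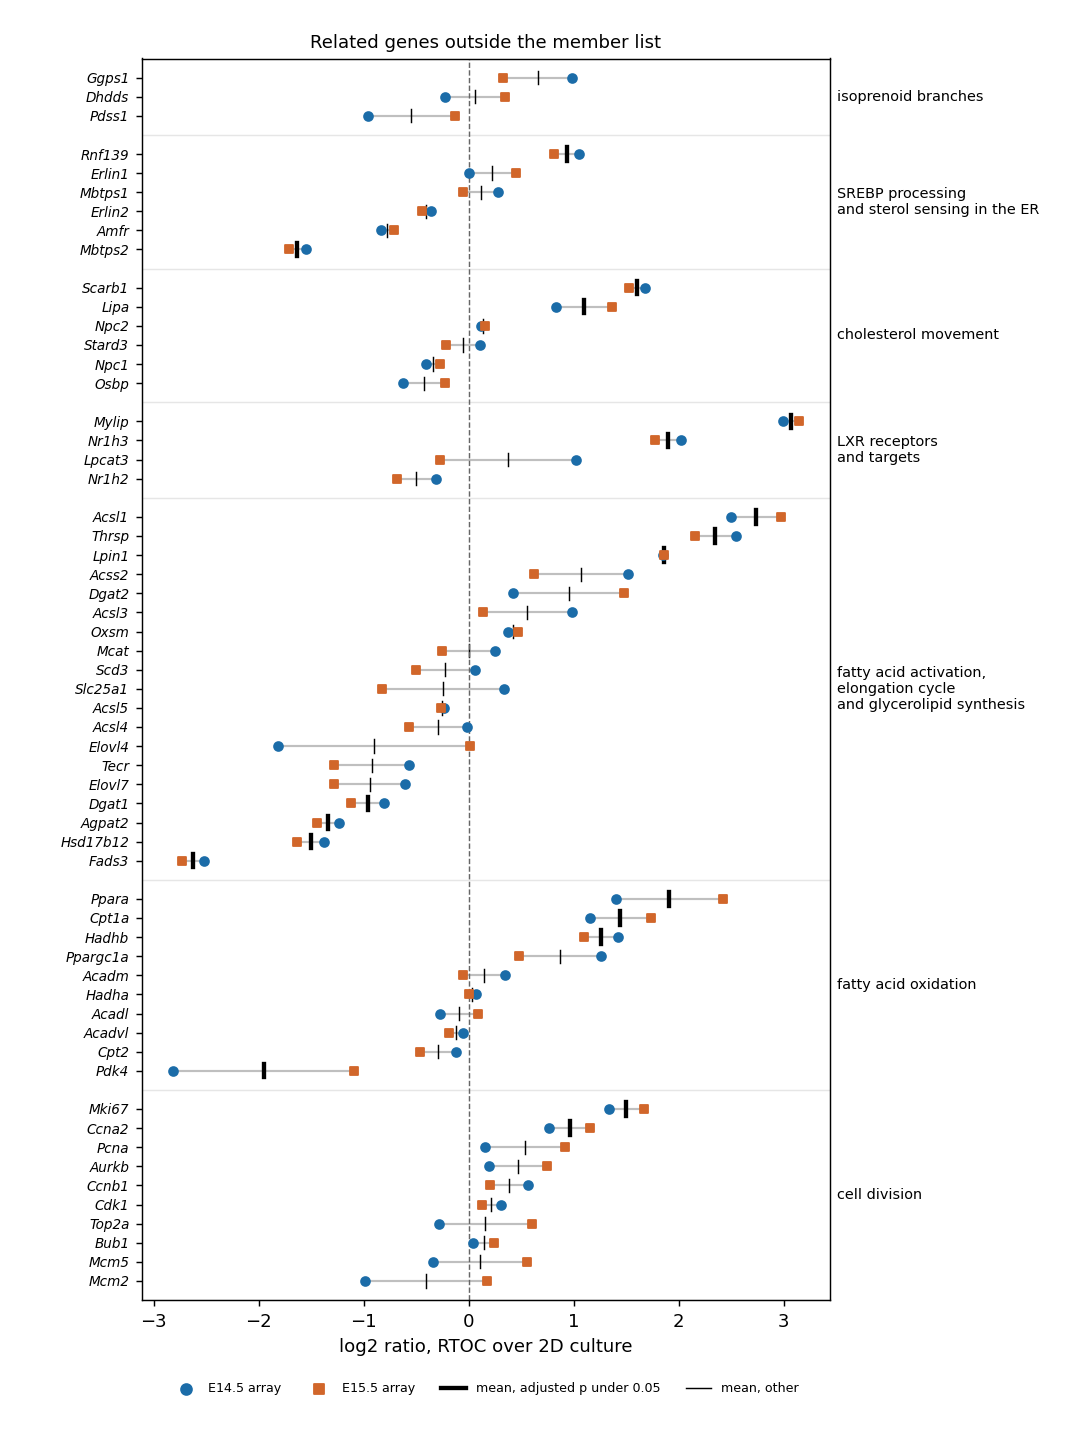
Log2 ratio of RTOC over 2D culture (horizontal axis) for the tested genes of 7 related lists, with the E14.5 array as circles, the E15.5 array as squares and the mean as a tick, thick where the limma adjusted p was under 0.05. Mylip (3.07) and Acsl1 (2.73) have the highest means and Fads3 (-2.62) the lowest.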

How the data were processed

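The authors ran Agilent Feature Extraction on the scans (version 9.1.3.1 per the file headers, 11.5.1.1 in the submitters' processing notes). The deposited scanner files give each spot's processed signal as an intensity, background-subtracted and dye-balanced array by array, and the deposited log10 ratio of Cy5 over Cy3 comes from the same signals. Following the study's methods, the processed signals of non-control spots, less outliers (5 at E14.5, 1 at E15.5), were here quantile normalized over the 4 channels as log2 values, and spots of a probe were averaged. Levels are these values, compared for the same probe only. The summed intensities of marker lists are the exception: they add unlogged values of different probes, so that the brightest probes weigh most. Of 41174 probes, the 23685 with at least 1 channel well above background on each array were tested. Accessions, symbols or older symbols of a RefSeq table named the genes, and 8458 unmatched probes entered no gene count.

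The log2 ratio, which pairs the cultures of an array, was tested against 0 with limma 3.58.1 in R 4.3.3 (two-sided, Benjamini-Hochberg, threshold 0.05). With 1 residual degree of freedom the error rests on the spread over all probes, and an exact sign-flip test over 2 arrays could not go below p = 0.5. Tested on simulated data, limma's default prior came out too tight at 1 residual degree of freedom, so that p-values can be too small, and a maximum-likelihood prior was added as an alternative. The number of arrays limits the precision, and repeat spots (175 tested probes with 5 or more) had a median log2 SD of 0.07 (E14.5) and 0.06 (E15.5). Bounds set the mean of the bright culture over the lowest signal well above background, or the dim probe's own where higher, after normexp (offset 50), loess and Aquantile.

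Every member was named, with full statistics for those past the threshold and at least 2-fold changed, and from each related list up to 3 of the highest and 3 of the lowest past it. Members, lists and tests were chosen with earlier results of these data known. Motifs were searched in the 250 bases before the start. Abcg1, Fads1, Fdft1, Fdps, Scd1, Scd2, Sqle and Stard4 have no promoter here. Alternatives were normexp and loess with or without Aquantile, median centring, log ratios as deposited, outliers kept, both channels above background, dim probes kept, no pairing, each array left out, a trended robust prior, the methods' t-test and a gene's median over its probes.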

Additional observations from a re-analysis of the deposited data

Results flagged for a closer look

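The ratio of RTOC over 2D culture changed its sign between the stages, each ratio farther from 0 than the median SD between spots of a probe, for 11 tested members. The difference (E15.5 minus E14.5, log2) was -2.55 for Tm7sf2, -1.51 for Idi1, -1.25 for Nsdhl, -1.23 for Mvd, -1.13 for Fdft1, -1.02 for Dhcr7, -0.23 for Sc5d and -0.20 for Pmvk, all of the mevalonate and sterol branches. It was -1.95 for Scd2, -0.51 for Insig2 and 1.67 for Soat1. In 10 of these 11 the RTOC over 2D ratio was above 0 at E14.5 and below 0 at E15.5, and Soat1 ran the other way. With 1 array per stage none of these differences was tested, and the stage cannot be told apart from the array.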

How the results depend on the processing

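Of the 11 calls (4 higher, 7 lower), all 11 remained with the log ratios as deposited, both channels above background, outliers kept, the trended robust prior and the median over probes, 10 with median centring and with the maximum-likelihood prior (Insig1 at 0.0505), and 9 with normexp and loess, with or without Aquantile. Without the pairing by array (no replicate block) 7 remained, 4 higher and 3 lower: Hsd17b7, Insig1, Elovl1 and Fads2 were lost. The trended robust prior and the median over probes each called 12 members, 1 of them new. With the median over probes the new one was Mvk, lower in RTOC (-0.94, limma adjusted p = 0.0404). With no filter on dim probes limma called 0 members (0 higher, 0 lower) and no gene, although 17 members and 5061 of the 13505 genes had an unadjusted p under 0.05. The methods' t-test passed 6 members before adjustment, 3 lower and 3 higher. Only 3 of these were among the 11 (Srebf1, Elovl6 and Elovl1), and Mvk, Lss and Scap were not. It passed 0 (0 higher, 0 lower) after Benjamini-Hochberg adjustment. Each array alone gave no test.

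The fatty acid median moved from -0.48 to -0.16 with normexp and loess, with or without Aquantile, and to -0.32 with median centring, and the regulation median from 0.22 to -0.27 with the median over probes. The mevalonate median went from -0.37 to -0.18 with normexp and loess and -0.22 with median centring, and the sterol median from -0.29 to -0.08 and -0.14, and to -0.45 with the median over probes. Leaving out an array gave 0.04 (E14.5 kept) or -0.72 (E15.5 kept) for the mevalonate median, 0.11 or -0.91 for sterol, 0.33 or 0.02 for regulation, -0.39 or -0.58 for fatty acid and 2.43 or 1.61 for efflux and esterification. No call changed direction. The sign turned for members that were not called: Pmvk (-0.0021) and Insig2 (-0.032) with normexp and loess, with or without Aquantile; Tm7sf2 (0.13) and Sc5d (0.15) with median centring; and Idi1 (-0.22), Lss (-0.18), Sc5d (0.70), Dhcr7 (-0.23), Insig2 (-0.11) and Stard4 (-0.88) with the median over probes. The causes were not tested. The lower ratio at E15.5 held for 15 to 17 of the 18 mevalonate and sterol members over 6 alternatives chosen after seeing the data, with 37.9% of all genes lower under median centring and their median difference at 0.18.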
